A study of Mus musculus with 28 samples.

Results

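The *Hox* genes of the mouse lie in 4 clusters, and the lists of H3K4me3 peaks and H3K27me3 islands from 2 types of striatal neuron were read at the promoter of every *Hox* gene and over each whole cluster. Members were all protein-coding genes of the GENCODE mm10 annotation with a symbol made of *Hoxa*, *Hoxb*, *Hoxc* or *Hoxd* and a number. This rule found 39 genes of 21938 protein-coding genes on chromosomes 1 to 19, X and Y, with 11 in *Hoxa*, 10 in *Hoxb*, 9 in *Hoxc* and 9 in *Hoxd*. The rule used only the symbol and none of the measured values.

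The libraries came from ICuRuS, in which nuclei tagged in 1 cell type are captured on beads (INTACT) and a histone mark is then profiled by cleavage under targets and release using nuclease (CnR). Striata came from Sun1-sfGFP;A2a-cre mice, whose tag marks A2a (indirect pathway) medium spiny neurons (MSNs), and from Sun1-sfGFP;*Drd1*-cre mice, whose tag marks D1 (direct pathway) MSNs. All mice were on the C57BL/6J background, male and female, about 8 weeks old and untreated as far as the labels say. The series has 28 samples, of which 8 stand behind the 4 lists, with 2 replicates for each cell type and mark, and the other 20 were not analysed here. Each list pools its 2 replicates, so no value below has a replicate error, no difference was tested between mice, and the intervals given reflect the number of reads alone. The source name of the D1 H3K27me3 samples reads A2a, whereas their title and cell type read D1, and they were taken as D1 here. At the promoters of the D1 markers *Pdyn* and *Tac1* the A2a islands were 39.6 and 61 kb long and the D1 islands 1 and 2.8 kb. At the A2a marker *Adora2a* an island of 45 kb was listed in D1 and none in A2a, so these markers went with the D1 label.

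*Hox* genes encode homeodomain transcription factors that set position along the head-to-tail axis of the embryo, and their order along each cluster matches the order of the body regions in which they act. Low-numbered paralogues pattern the hindbrain, middle ones the neck and trunk, and high-numbered ones the lumbar region, tail, limbs and genital tract. The striatum derives from the forebrain, in front of the domain where *Hox* genes are active. H3K27me3 is placed by Polycomb repressive complex 2 (PRC2) and marks repressed developmental genes, often over long domains, whereas H3K4me3 is found at the start sites of active or poised genes.

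A few sequences are shown here because the results turn on them. *Hoxa7* was the *Hox* promoter with an H3K4me3 peak in both cell types, and the stretch printed is the part of the A2a peak that lies outside annotated exons, within the body of the gene (GRCm38.p6, chr6:52221334-52221546, plus strand, 213 bases). *Hoxd1* had a peak in A2a alone (chr2:74762730-74763029, plus strand). The start of *Hoxa13* fell between 2 islands in both cell types (chr6:52260831-52261130, minus strand), and was chosen for display after its values were seen. *Hoxc4* lies in the island with the most reads of either list (chr15:103034145-103034444, plus strand; this RefSeq start lies downstream of the GENCODE 5′ end used for the counts), and *Hoxb1* marks the 3′ end of its cluster (chr11:96365508-96365807, plus strand). The promoter entries run from 250 bases before to 50 after a start, are credited to RefSeq (GRCm38.p6), and show CG dinucleotides in capitals.
*Hoxa7* peak: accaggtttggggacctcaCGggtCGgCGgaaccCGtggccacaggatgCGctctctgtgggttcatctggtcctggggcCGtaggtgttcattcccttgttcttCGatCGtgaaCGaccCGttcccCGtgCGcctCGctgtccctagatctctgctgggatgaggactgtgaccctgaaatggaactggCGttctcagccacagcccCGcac
*Hoxd1* promoter: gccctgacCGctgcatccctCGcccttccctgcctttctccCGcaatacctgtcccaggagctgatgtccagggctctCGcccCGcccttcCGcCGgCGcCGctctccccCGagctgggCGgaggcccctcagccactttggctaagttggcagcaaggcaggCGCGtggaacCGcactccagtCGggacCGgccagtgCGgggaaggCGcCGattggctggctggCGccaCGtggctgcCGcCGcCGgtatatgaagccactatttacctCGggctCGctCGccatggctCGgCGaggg
*Hoxa13* promoter: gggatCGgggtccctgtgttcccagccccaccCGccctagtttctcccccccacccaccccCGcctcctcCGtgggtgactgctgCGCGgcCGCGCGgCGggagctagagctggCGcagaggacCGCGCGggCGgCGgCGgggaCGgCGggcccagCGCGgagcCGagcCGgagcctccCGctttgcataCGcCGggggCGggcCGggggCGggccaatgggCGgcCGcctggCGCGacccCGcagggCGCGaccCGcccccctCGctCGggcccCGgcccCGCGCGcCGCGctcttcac
*Hoxc4* promoter: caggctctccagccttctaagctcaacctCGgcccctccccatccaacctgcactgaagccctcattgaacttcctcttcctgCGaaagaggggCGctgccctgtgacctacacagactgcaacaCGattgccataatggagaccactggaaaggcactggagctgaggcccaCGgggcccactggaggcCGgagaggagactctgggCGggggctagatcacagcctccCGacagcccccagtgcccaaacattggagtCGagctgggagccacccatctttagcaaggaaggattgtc
*Hoxb1* promoter: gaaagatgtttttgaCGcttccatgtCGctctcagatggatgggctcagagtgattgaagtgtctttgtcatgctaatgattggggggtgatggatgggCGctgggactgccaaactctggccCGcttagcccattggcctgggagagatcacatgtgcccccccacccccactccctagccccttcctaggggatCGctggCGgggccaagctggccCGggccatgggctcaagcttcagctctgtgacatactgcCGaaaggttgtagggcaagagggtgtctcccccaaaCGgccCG

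H3K27me3 islands reached every *Hox* promoter in both cell types, and H3K4me3 peaks were listed at few of them. A promoter was taken from 2 kb upstream to 1 kb downstream of the annotated 5′ end, and an overlap of 1 bp was enough. In A2a neurons 39 of 39 *Hox* promoters held an H3K27me3 island, where 21.7% of all protein-coding promoters did. In D1 neurons it was again 39 of 39, against 15.3%. Of protein-coding genes with an island in A2a, 65.9% had one in D1. H3K4me3 peaks were listed at 2 *Hox* promoters in A2a (*Hoxa7* and *Hoxd1*), where the share over protein-coding genes was 58.2%. In D1 neurons 1 *Hox* promoter (*Hoxa7*) had a peak, against 55.7%. These promoters carried both marks, a state of 9.54% of protein-coding promoters in A2a and 5.57% in D1. The state was the same in both cell types for 38 of 39 *Hox* genes, against 89.2% of protein-coding genes, and *Hoxd1* was the exception.

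The share of *Hox* promoters with a peak also stood below that over all promoters under islands. Among protein-coding genes with an island at the promoter, 44% had a peak in A2a and 36.4% in D1. Where the island was at least 20 kb long, the shares were 42.5% in A2a and 28.9% in D1. *Hox* genes had 2 of 39 (5.13%) and 1 of 39 (2.56%). Peaks were also few at *Pax* and *Lhx* promoters, whose counts are given below. The 39 promoters are not independent of one another, because 6 islands overlapping the clusters in each list reached all of them. A further island beyond the *Hoxa* cluster also reached the *Hoxa13* window in each list, and is not among the 6. *Hoxd3* and *Hoxd4* share nearly the same annotated 5′ end (chromosome 2, positions 74711927 and 74711929), so that their promoter windows are read almost as 1. The windows of *Hoxc5* and *Hoxc10* overlap over most of their length, with annotated 5′ ends at positions 102967443 and 102966796 of chromosome 15.

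**Figure D1:**
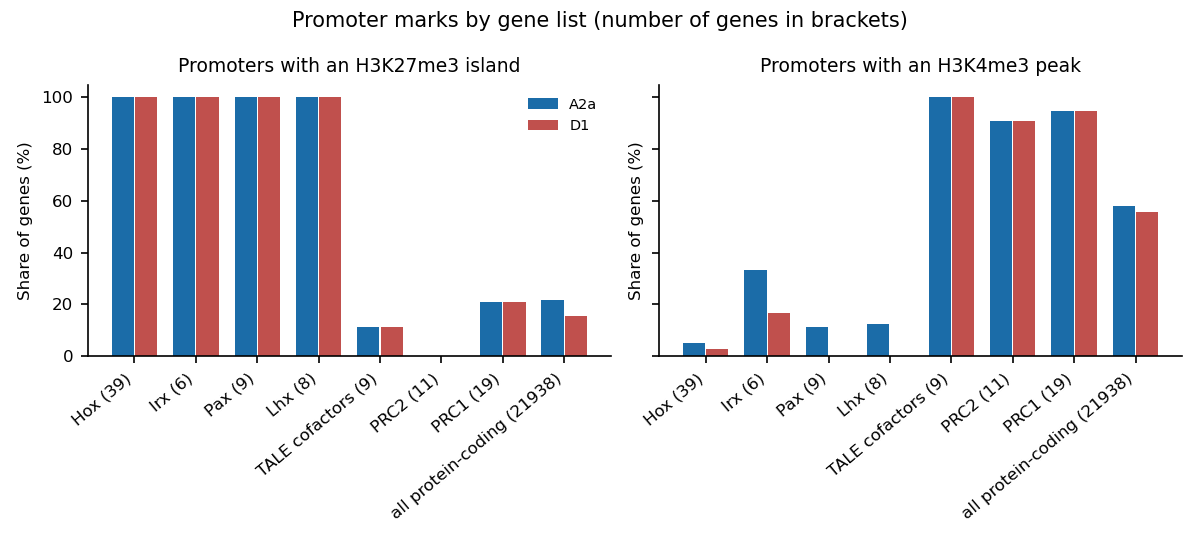
Share of genes (%) with an H3K27me3 island (left) and an H3K4me3 peak (right) at the promoter, by gene list, with A2a in blue and D1 in red. *Hox* genes reached 100% for islands in both lists and 5.13% and 2.56% for peaks, where all protein-coding genes had 58.2% and 55.7%.

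The islands did more than touch the promoters. The whole promoter window lay within islands for 37 of 39 *Hox* genes in each list, against 10.2% of protein-coding genes in A2a and 6.02% in D1. The annotated start itself lay within an island for the same number, 37 of 39, in each list. The exceptions were *Hoxa4* and *Hoxa13*, with 73.3% of the window inside islands in A2a and in D1. Along the gene body, 36 of 39 genes lay wholly inside islands in each list, and the others were *Hoxa3* with 98.2%, *Hoxa13* with 84.9% and *Hoxa4* with 73.5% of their length. An island of at least 20 kb stood over every *Hox* promoter, a feature of 2.49% of protein-coding promoters in A2a and of 1.34% in D1. No paralogue group was without an island in either list, from the low-numbered groups, which act in the hindbrain, to the 4 genes of group 13, which act in the tail bud, limbs and genital tract.

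The *Hoxc* cluster (chromosome 15, 102921103 to 103036852), whose 9 genes run from *Hoxc4* to *Hoxc13*, was covered by 1 unbroken island in each list. In A2a it spanned 102900601 to 103072600 (172 kb) and held 26415 reads (95% Poisson interval 26097.4 to 26735.5). In D1 it spanned 102903201 to 103072600 (169.4 kb) and held 11642 reads (11431.5 to 11855.4). Both ranked 1 by reads among the 60191 A2a and 45760 D1 islands. In A2a the longest island was that at *Smyd2*, with 194.2 kb, and the *Hoxc* island ranked 2 by length, whereas it ranked 1 in D1.

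The *Hoxd* cluster (chromosome 2, 74668310 to 74765142) has 9 genes, and its posterior members from *Hoxd9* to *Hoxd13* are known for their part in limb and digit formation. It too lay under 1 island per list. In A2a this island had 132.8 kb and 23461 reads (23161.7 to 23763.2), and in D1 it had 129.2 kb and 11330 reads (11122.3 to 11540.6). They ranked 2 by reads in each list. *Evx2*, a homeobox gene next to *Hoxd13*, lay 8.75 kb outside the *Hox* span and in the same island.

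The *Hoxb* cluster (chromosome 11, 96194316 to 96368256) was covered in pieces, with both ends under long islands and a thinner stretch between. *Hoxb1* to *Hoxb9* shared an island of 138 kb with 21364 reads in A2a (21078.5 to 21652.4) and of 130.2 kb with 9807 reads in D1 (9613.85 to 10003.1), which ranked 3 by reads in each list. *Hoxb13*, set apart from the rest and known for its role in tail and prostate, lay in an island of its own with 48.6 kb and 7487 reads in A2a and 48.2 kb and 3561 reads in D1. The 74.0 kb between the end of *Hoxb13* and the start of *Hoxb9* were 91.1% in islands in A2a and 71.6% in D1. The small islands lying wholly between the 2 long ones held 67.2 and 67.5 reads per kb in A2a, near the median of 78.75 for A2a islands of at least 10 kb, and 32.5 to 45.8 reads per kb in D1. The longest gap without an island there had 4.6 kb in A2a and 14.4 kb in D1. All of the *Hox* length with an island in 1 list alone lay in this interval.

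The *Hoxa* cluster (chromosome 6, 52155590 to 52260880) has 11 genes and lay under 2 islands in each list. The first covered *Hoxa2*, which patterns the hindbrain and its neural crest, with 48.2 kb and 8708 reads in A2a (8526.05 to 8892.85) and 44.6 kb and 4241 reads in D1 (4114.31 to 4370.6). The low-coordinate part of *Hoxa3* also lay in it. The second ran from 52192001 to 52260400 in both lists, over 68.4 kb. The second island covered the annotated 5′ end of *Hoxa3* and the genes from *Hoxa5* to *Hoxa11*. It held 13923 reads in A2a (13692.7 to 14156.2) and 7064 in D1 (6900.22 to 7230.69). This island had the highest read density of any island overlapping a *Hox* span, at 203.6 reads per kb in A2a and 103.3 in D1. It ranked 13 by reads in A2a and 10 in D1.

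**Figure D2:**
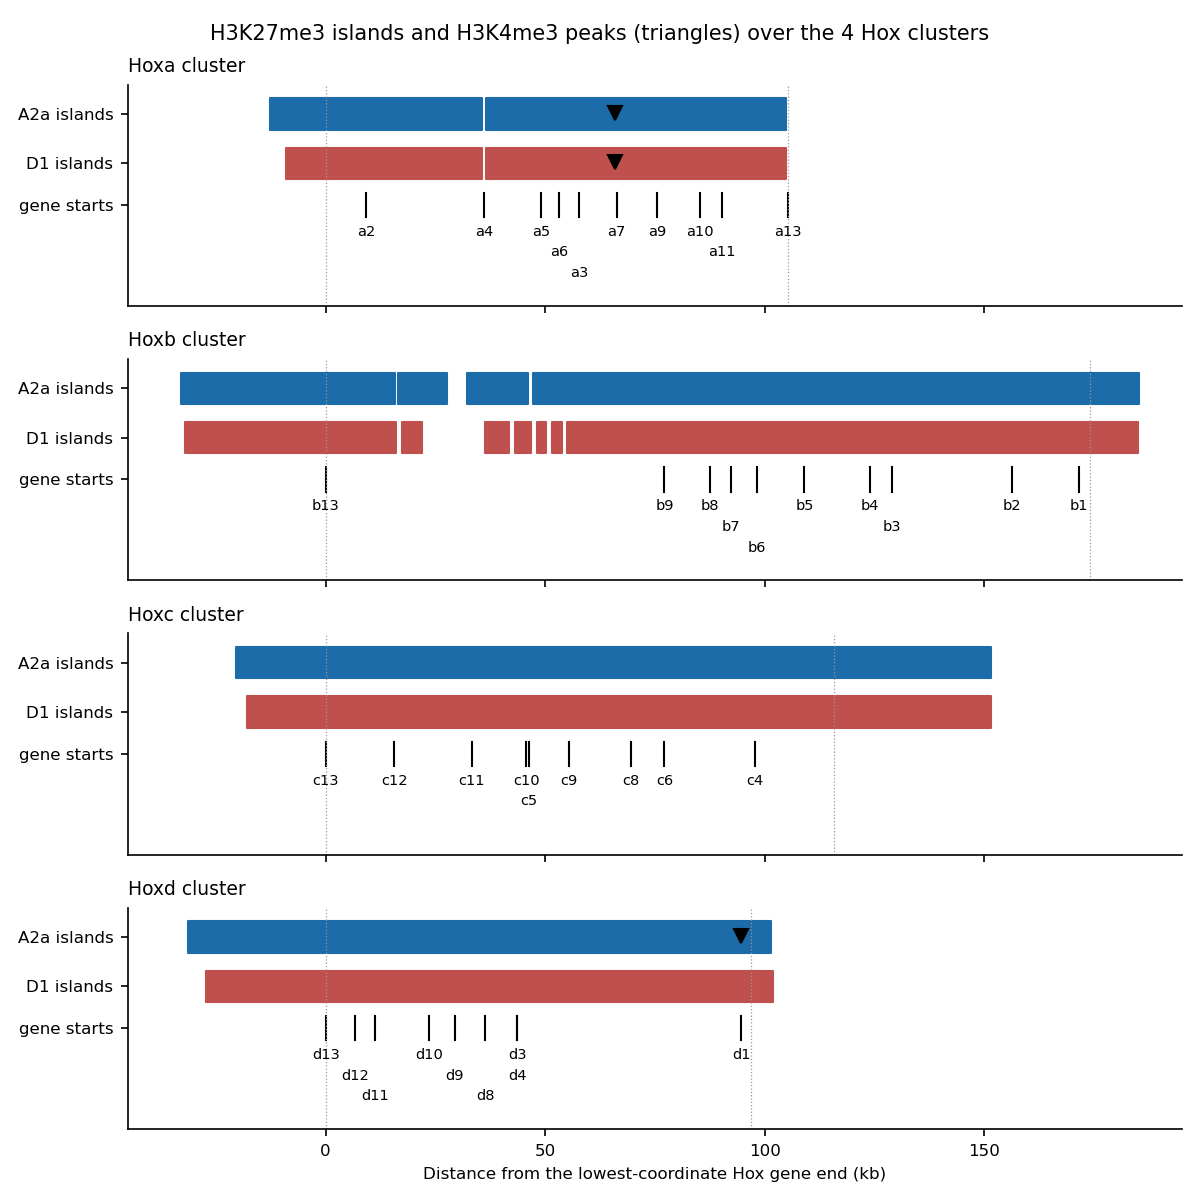
Islands of H3K27me3 that overlap each *Hox* span (A2a blue, D1 red), H3K4me3 peaks within the span (triangles) and annotated starts of most *Hox* genes (ticks), by distance in kb from the low-coordinate end of each cluster. *Hoxc* and *Hoxd* lie under 1 island in each list, *Hoxa* under 2 and *Hoxb* under 4 in A2a and 7 in D1, with peaks at *Hoxa7* in both lists and at *Hoxd1* in A2a.

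Over the 4 spans together, 98.4% of 491.8 kb lay in islands in A2a and 95.5% in D1, where the genome as a whole had 11.0% and 6.76%. By cluster the shares were 98.8% in each list for *Hoxa*, 100% in each list for *Hoxc* and for *Hoxd*, and 96.2% in A2a and 87.9% in D1 for *Hoxb*. Islands of both lists covered 468.5 kb, islands of A2a alone 15.4 kb, islands of D1 alone 1 kb, and 6.88 kb had none. Of the *Hox* length in an island of either list, 96.6% was in both, where over the genome 39.5% was. The 2 lists thus shared more of their island length here than over the genome, without a replicate check. The comparison is not between islands of like length, since the median island had 3.6 kb in A2a and 3 kb in D1. The lists also differ in depth, and whether length or depth accounts for the difference was not tested. Islands of at least 100 kb were rare, with 11 in A2a and 4 in D1, and 3 in each list stood at *Hox* clusters.

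**Figure D3:**
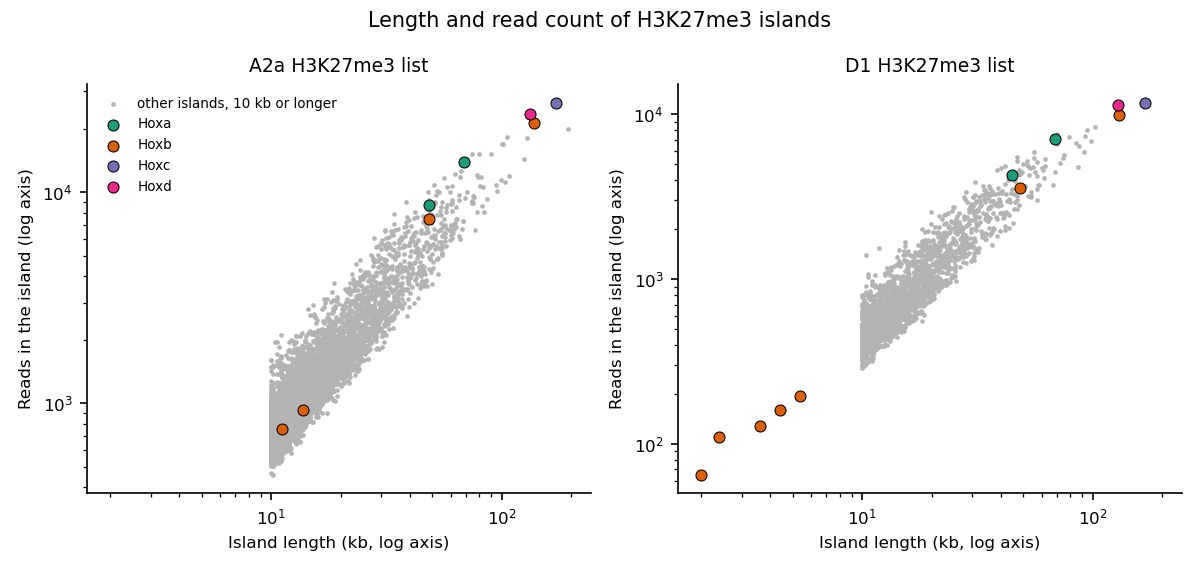
Length (kb) and read count of H3K27me3 islands, both on log axes, for the A2a list (left) and the D1 list (right), with other islands of at least 10 kb in grey and islands overlapping a *Hox* span coloured by cluster. The islands of *Hoxc* (172 and 169.4 kb), *Hoxd* and *Hoxb1* to *Hoxb9* lie at the top of each panel, and the small *Hoxb* islands at the lower left lie between *Hoxb13* and *Hoxb9*.

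*Hox* islands were dense as well as long. Those overlapping the spans held 162.8 reads per kb in A2a and 79.5 in D1, 2.22 and 1.86 times the mean of their lists (73.4 and 42.8). Of these, the single islands at *Hox* promoters ranged from 153.6 to 203.6 reads per kb in A2a and from 68.7 to 103.3 in D1. Among all islands of at least 10 kb the median was 78.75 in A2a and 49.6 in D1, and the 95th percentile 143 and 88.5. The pooled *Hox* density stood at percentile 97.7 of these islands in A2a and 90.8 in D1. Such density was thus not particular to *Hox*, and some other islands were denser. All 6 islands that overlap the spans and hold *Hox* promoters passed the 95th percentile in A2a, and in D1 the 2 *Hoxa* islands did. In each list the *Hoxc* island was the longest of these and the least dense, and the second *Hoxa* island was the most dense. *Hox* islands took 0.466% of all island reads in A2a on 0.210% of the island length, and 0.613% in D1 on 0.330%.

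The read density of *Hox* islands was 2.05 times higher in the A2a list than in the D1 list, but most regions were. The lists are not normalized for depth, and the library totals were not used here. In 813 regions with at least 20 kb of island in each list, the median ratio was 1.92 (25th to 75th percentile 1.78 to 2.05). By cluster, the ratio was 1.94 for *Hoxa* (95% counting interval 1.90 to 1.98), 2.02 for *Hoxb* (1.98 to 2.06), 2.01 for *Hoxd* (1.97 to 2.06) and 2.23 for *Hoxc* (2.19 to 2.28). The *Hoxc* ratio was above those of the other clusters beyond counting error and stood at percentile 91.1 of the long shared regions. Relative to the mean density of each list, the *Hox* ratio was 1.19, but these means cover islands of all lengths. Among the 813 long shared regions the pooled *Hox* ratio of 2.05 stood at percentile 74.7. No spread between mice is known for these ratios.

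**Figure D4:**
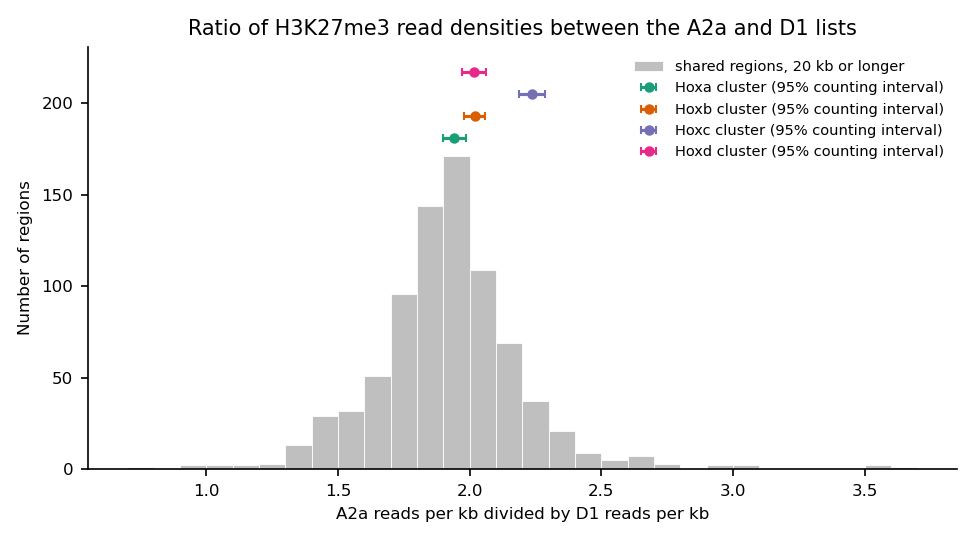
Reads per kb in A2a divided by reads per kb in D1, for 813 shared regions with at least 20 kb of island in each list (grey, number of regions per bin) and for each *Hox* cluster (points, with 95% counting intervals, set above the bars at arbitrary heights). *Hoxa* (1.94), *Hoxb* (2.02) and *Hoxd* (2.01) lie over the main body of regions and *Hoxc* (2.23) lies to its right.

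Some ends of *Hox* islands were placed alike in both lists, and others lay up to 7.6 kb apart. The 6 islands that overlap the spans and hold *Hox* promoters have 12 ends. Identical ends numbered 4, at the breaks in *Hoxa* described below and at *Hoxc*. With these included, 7 of the 12 ends lay within 400 bp of each other (58.3%). Over long islands in general this share was lower. For A2a islands of at least 20 kb with a D1 island over at least 50% of their length, 24.9% of 1126 ends lay within 400 bp, and the median difference was 2.8 kb. The *Hoxc* islands ended at the same position, and the *Hoxd* islands ended 400 bp apart. At the other side the D1 islands were the shorter ones, by 2.6 kb at *Hoxc*, 4 kb at *Hoxd*, 3.6 kb at *Hoxa* and 7.6 kb at *Hoxb*.

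Both breaks in the *Hoxa* islands had the same 2 ends in A2a and in D1 and lay at gene starts. The first (chromosome 6, 52191201 to 52192000, 800 bp) held the start of *Hoxa4*, a gene of the neck region, and the other (52260401 to 52261200) held the start of *Hoxa13*, which acts in limb and genital tract. Over the genome 156 gaps of at most 1000 bp had identical ends in both lists, and 3 of them held the start of a protein-coding gene, the third being that of *Spry4*. The GC content of the *Hoxa4* gap was 76.6% with 115 CG, and that of the *Hoxa13* gap was 77.8% with 118 CG. The median over the 156 gaps was 43.6%, and the highest outside the *Hox* clusters was 66.9%. The *Hoxa13* promoter printed above has 45 CG in 300 bases.

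Windows of such high GC content were found both with and without a break. Over the *Hox* clusters, 6 of 2464 windows of 800 bp, taken at steps of 200 bp, reached a GC content of at least 76.6%. Of these, 3 lay at *Hoxd8* (chromosome 2, 74704801 to 74706000) and were wholly within islands in both lists, and 3 lay at or across the *Hoxa4* and *Hoxa13* gaps. The median window had a GC content of 48.8% and 14 CG. Whether reads of such composition were recovered less well was not tested.

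The H3K4me3 peaks inside the clusters were narrow. The A2a peak at *Hoxa7*, a gene of trunk patterning, ran from 52221334 to 52221782 (449 bp), with a fold enrichment of 11.3 and a −log10 q of 43.9, at percentile 44.8 of A2a peaks. The D1 peak ran from 52221392 to 52221754 (363 bp), with a fold of 7.87 and a −log10 q of 21.8, at percentile 35.4. Their summits lay 183 and 261 bp from the annotated start, inside the gene. The *Hoxd1* peak of A2a (chromosome 2, 74762663 to 74763243, 581 bp) had a fold of 6.25 and a −log10 q of 15.3, at percentile 27.7. Its summit was 111 bp from the start of *Hoxd1*, and it also covered the start of *Haglr*, a long noncoding RNA that leaves in the other direction.

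For scale, promoter peaks of protein-coding genes had a median −log10 q of 127 and a median width of 1622 bp in A2a, and of 86.2 and 1517 bp in D1. Where an island was present as well, the medians were 39.4 and 1328 bp in A2a and 21.6 and 1125 bp in D1. The *Hoxa7* peak was close to the median of such promoters in −log10 q, and narrower, whereas the *Hoxd1* peak was lower and narrower. In fold enrichment *Hoxa7* stood higher, since the median of promoters with both marks was 6.73 in A2a and 5.74 in D1, and *Hoxd1* with 6.25 stood below the A2a median. The D1 list had no peak at *Hoxd1*, which says only that none passed the q-value threshold of the authors. All 3 peaks lay wholly within H3K27me3 islands of the same cell type. Peaks took up 0.209% of the *Hox* length in A2a and 0.0738% in D1, where they took up 1.04% and 0.889% of the genome. RefSeq places the promoter entry of *Hoxa7* at 52218524 to 52218823, nearer the 3′ end than the annotated start used here, and no peak overlapped it.

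*Hox* promoters were not poor in CG. In the 300 bases around the start, *Hox* promoters had a median of 16 CG (3 to 47), where the median was 11 over protein-coding genes, 5 at promoters with an island alone in A2a, 17 at promoters with both marks and 20 at those with a peak alone. Among protein-coding genes with an island and at least 16 CG, 74.3% had a peak in A2a and 59.5% in D1. With that many CG and regardless of islands, the shares were 93.8% and 91.7%. *Hoxd1* had 29 CG, a number that 6 *Hox* promoters reached or passed, itself included. *Hoxa7* had 13 CG, below the *Hox* median. Among *Hox* promoters with at least 16 CG, *Hoxd1* was thus the only one with a peak, in A2a alone. *Hoxa4* with 47 CG and *Hoxa13* with 45 CG were the richest and had no peak in either list.

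**Figure D5:**
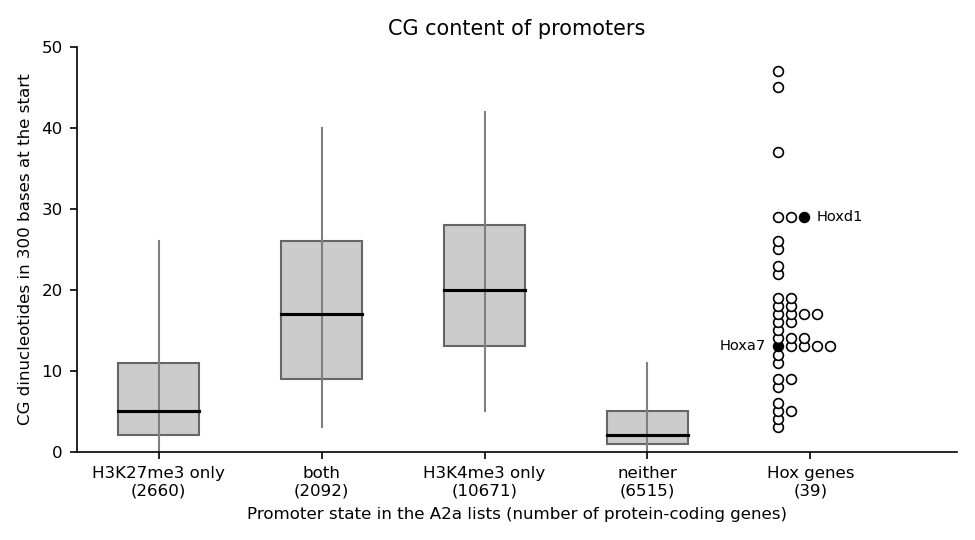
Number of CG dinucleotides in the 300 bases around the annotated start, for protein-coding genes by promoter state in the A2a lists (box from the 25th to the 75th percentile, black line at the median, whiskers from the 5th to the 95th percentile) and for each of the 39 *Hox* genes (circles, filled where the A2a list has a peak). *Hox* promoters range from 3 to 47 with a median of 16, near the median of 17 for promoters with both marks.

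Short motifs were searched on both strands of the same 300 bases. TATAAA was found at 6 *Hox* promoters (15.4%), where 12.6% of protein-coding promoters held it. TGATNNAT, the form bound by Pbx with Hox proteins, was found at 8 (20.5%), where 7.26% held it. One copy is in the *Hoxb1* promoter printed above, as tgatggat. Such a match is a description of letters and not of binding, and no test was made.

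Other annotated genes within the spans also lay in islands, which the island coverage of the spans given above largely fixed beforehand. All 43 annotated noncoding genes there, a processed pseudogene among them, had an island at the promoter in both lists. Of these, 42 in A2a and 41 in D1 lay wholly inside islands. *Haglr* was the one with an H3K4me3 peak, in A2a alone. The 6 microRNA hairpins with a RefSeq entry in the spans lay in islands in both lists. miR-10a, from *Hoxb*, and miR-10b, from *Hoxd*, share the seed ACCCUGU, and miR-196a, from *Hoxb* and *Hoxc*, and miR-196b, from *Hoxa*, share the seed AGGUAGU. They are shown because they tie the clusters together by sequence (RefSeq, 5′ to 3′, with the seed, bases 2 to 8, in capitals).
miR-10a-5p: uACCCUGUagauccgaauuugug
miR-10b-5p: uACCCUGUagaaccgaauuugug
miR-196a-5p: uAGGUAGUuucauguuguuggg
miR-196b-5p: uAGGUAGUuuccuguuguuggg
miR-196 targets *Hox* messages such as *Hoxb8*, as background. Expression of these microRNAs was not measured here.

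Outside the clusters the marks changed within a few genes. Of the nearest 3 protein-coding genes on each side, 24 in all, 16 had H3K4me3 alone in both lists. Over all 21938 protein-coding genes, 10671 had that state in A2a and 11009 in D1, with each list taken alone. The number with that state in both lists was not counted, so the 2 measures are not alike. An island stood at 21.7% of all promoters in A2a and 15.3% in D1, and no test was made. *Evx1*, *Evx2* and *Ttll6* had an island without a peak in both lists. *Evx1* and *Evx2* are homeobox genes related to the *Hox* family, and *Evx1* lay 52.6 kb from *Hoxa13* in an island of its own (23.4 kb in A2a and 21.6 kb in D1). *Ttll6*, a tubulin ligase gene 28.9 kb from *Hoxb13*, had islands of 7 and 4.2 kb. *Skap2* and *Nfe2l2* carried both marks in both lists. *Mtx2* and *Lnpk*, on either side of *Hoxd* at 60.7 and 88.9 kb, were among the 16, with −log10 q of 192 and 176 in A2a. *Skap1*, next to *Hoxb1*, had an island of 5 kb in A2a and a peak of low significance (−log10 q of 5.42) in D1. *Smug1*, next to *Hoxc4*, had both marks in A2a and neither in D1. These 2 genes and *Calcoco2*, with an island of 4.2 kb in A2a and none in D1, were the neighbours whose state differed between the lists.

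Most promoters of genes that work with Hox proteins, belong to Polycomb complexes or act on these marks had an H3K4me3 peak. The shares over protein-coding genes were 58.2% in A2a and 55.7% in D1. Of the 9 TALE cofactors, the homeodomain partners of Hox proteins, all 9 had an H3K4me3 peak in both lists. Among them *Meis1* alone had an island as well, of 32.6 kb and 2740 reads in A2a and of 8.4 kb and 313 reads in D1. Of 11 genes of PRC2, which places H3K27me3, 10 had a peak and none an island in both lists. Of 19 genes of PRC1, which reads H3K27me3, 18 had a peak in each list and 4 (21.1%) had an island as well, near the shares of 21.7% and 15.3% over protein-coding genes. Of 9 genes that write H3K4me3 or remove H3K27me3, 8 had a peak in A2a and 7 in D1, the difference being *Kdm6b*, an H3K27 demethylase, with a −log10 q of 12.7 in A2a and no peak in D1.

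Promoters of other homeobox families were also under islands. All 6 *Irx*, 9 *Pax* and 8 *Lhx* promoters had islands in both lists. The median of the longest promoter island was 42.8 kb in A2a and 27.7 kb in D1 for *Irx*, 46.8 and 36.8 kb for *Pax* and 28.5 and 23.4 kb for *Lhx*. For *Hox* it was 132.8 and 129.2 kb, but up to 9 *Hox* genes share an island. The 6 islands that overlap the spans and hold *Hox* promoters ranged from 48.2 to 172 kb in A2a and from 44.6 to 169.4 kb in D1. The island with the most reads in the other families was at *Pax3*, a gene of neural crest and muscle, with 101.8 kb and 16894 reads in A2a and 92.4 kb and 7338 reads in D1. In both lists it had fewer reads than the islands of *Hoxb1* to *Hoxb9*, *Hoxc* and *Hoxd*. It had more than both *Hoxa* islands and that of *Hoxb13*. Its density was 166 reads per kb in A2a and 79.4 in D1, near the 162.8 and 79.5 of *Hox* islands. Peaks were found at *Irx3* and *Irx5*, *Pax6* and *Lhx2* in A2a and at *Irx5* in D1. That was 2 of 6 *Irx*, 1 of 9 *Pax* and 1 of 8 *Lhx* promoters in A2a. In D1 it was 1 of 6 *Irx* promoters and no *Pax* or *Lhx* promoter. A low number of peaks under islands was thus not particular to *Hox* genes. In each family 1 gene with a peak in A2a had none in D1, as *Hoxd1* had among the *Hox* genes.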

How the data were processed

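CnR libraries for H3K4me3 (Abcam antibody) and H3K27me3 (Active Motif antibody) were analysed from A2a and D1 nuclei, 2 replicates each, pooled by the authors into 4 lists. Per the submitters' processing notes, reads were mapped to mm10 with Bowtie2 (version 2.1.0) and handled with SAMtools (version 0.1.19) and Picard. The authors kept a mapping quality of at least 20 and inserts of 150 to 500 bp. For H3K4me3 the authors ran MACS2 (q-value threshold 0.01), and the deposited values used here are a fold enrichment over local background (a ratio) and a −log10 q. The deposited display score was not used further. For H3K27me3 the authors ran SICER (window 200 bp, gap 600 bp, false discovery rate 0.01) against a control that is not named in the sources used here, and the deposited value is a count of reads, not normalized. Library totals are not part of these lists, so depth is known only as reads within islands, 22091634 in A2a and 7878685 in D1.

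Genes came from GENCODE vM21, with positions counted from 1 on mm10 (GRCm38). Overlap of at least 1 bp was counted at promoters and by length over each cluster, from the first to the last base of its *Hox* genes. Poisson intervals (95%) cover counting error only. Promoters were matched to RefSeq by symbol, with 24 entries for 22 *Hox* genes. Counts of *Hox* genes are set beside the share over all protein-coding genes, without a test. Sorting of promoters by overlap was tested on simulated data, with 2000 of 2000 right. Named genes are the *Hox* genes, the 3 nearest neighbours on each side, noncoding genes with a peak, and fixed lists of TALE, PRC2, PRC1, H3K4 and H3K27 enzyme and *Irx*, *Pax* and *Lhx* genes, of which those that differ between cell types or have the island with the most reads are named. Some genes counted in these lists are not reported here by name. *Smyd2*, *Spry4* and the examples of neighbours were chosen after their values were seen. The members and lists were chosen with earlier results of these data known. In all, 12 results were recomputed under 11 alternatives. The software was Python 3.11.15 with numpy 2.4.6 and scipy 1.17.1, and plots were drawn in matplotlib 3.10.9.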

Additional observations from a re-analysis of the deposited data

How the results depend on the processing

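Of 74 pairs of a result and an alternative, 67 stayed within their limits, among them every count of *Hox* promoters with an island or a peak. These alternatives changed the promoter window, the start sites used, the overlap, the thresholds for peaks and islands, the merging of islands and the spans. The start-site alternative took any annotated transcript start and kept the 5′ end used here. It could therefore add promoter hits but not remove them. RefSeq starts, such as that of *Hoxa7*, were not tried. The share of *Hox* length in islands was 98.4% in A2a and 95.5% in D1. Merging islands within 5 kb gave 100% in A2a and 97.1% in D1. Leaving out *Hoxb13* and the gap beside it gave 99.7% in A2a and 99.7% in D1, and extending the spans by 10 kb gave 97.8% in A2a. The ratio of reads per kb, A2a over D1, was 2.05, fell to 1.90 with merged islands and was 1.19 relative to the whole list. No paired analysis was possible because each list pools its replicates, and leaving out a replicate could not be run for the same reason. The absence of a peak or island is limited by depth and by the thresholds of the authors.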

Other observations

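In the 60 kb on either side of the *Hox* spans, H3K4me3 peaks were listed at 2 places in A2a and at none in D1. One lay 45.0 kb beyond *Hoxa13*, 7262 bp from the start of *Evx1*, with 800 bp and a −log10 q of 26.8, and was wholly inside an H3K27me3 island. The other lay 24.4 kb beyond *Hoxd1*, with 631 bp and a −log10 q of 6.41, and was outside islands.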
